A study of Mus musculus with 6 samples.

Results

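The 70 genes described here were all genes in the count tables whose symbols begin with S100a or another lettered S100 prefix, Anxa, Sprr, Lce or Tgm followed by a digit. They were 70 of the 24393 listed genes, and comprised 14 S100 genes, 12 annexin genes, 16 small proline-rich protein (Sprr) genes, 21 late cornified envelope (Lce) genes and 7 transglutaminase genes. The rule reads symbols alone, but it was set with earlier results of these data known. RNA was sequenced from KH2 mouse embryonic stem cells (strain given as C57/BL/6), a line made to carry doxycycline-inducible genes. There were 6 libraries, with 3 labelled CONTROL and 3 labelled HOXA13. According to the study's methods, the HOXA13 cells carried the human HOXA13 gene with a FLAG tag, inserted by FLPe recombinase and followed by hygromycin selection of colonies. All libraries have the same protocol text. Stem cells grew on irradiated 3T3-Swiss albino fibroblasts. For differentiation they grew on M15 feeders, a line of mesodermal origin, in medium supplemented with CHIR, Activin-A and Noggin besides basic Fibroblast Growth Factor. Doxycycline at 1.25 µg/ml was present from day 4. CXCR4+/E-cadherin+ cells were taken by flow cytometry on day 6, and their RNA was collected after 1 more day in doxycycline. The text does not say separately whether CONTROL cells received doxycycline. The comparison asked how these genes differ in sorted cells with and without HOXA13. The study's methods describe checking targeted clones for induction and then selecting 3 HOXA13 and 3 control replicates, which they call biological. Neither they nor the labels say whether each replicate was a separate clone or culture. The p-values therefore measure only the spread between these libraries.

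The cornified envelope is the cross-linked protein shell of the outermost cells of stratified squamous epithelia, such as skin and the lining of the esophagus. Sprr and Lce proteins are its precursors, and transglutaminases join them to other proteins by covalent bonds. S100 proteins are small calcium-binding proteins, and annexins bind phospholipid membranes when calcium is present. Several annexins pair with a particular S100 protein, as annexin A2 does with S100A10. Most S100 genes and the Sprr and Lce genes lie side by side on mouse chromosome 3 in a cluster called the epidermal differentiation complex.

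Total counts ranged from 12279884 to 17331638 per library, so that 3 counts, used as the lowest level the depth can show, corresponded to 0.176 to 0.24 CPM (counts scaled to a common depth by TMM-normalised library sizes). This floor covers counting error only. As a check of the labels, the row with the human identifier ENSG00000106031, which the files pair with no symbol, had 0 counts in every CONTROL library and 2497, 7666 and 6572 counts in HOXA13 replicates 1, 2 and 3. Mouse Hoxa13 had at most 10 counts in any library. CONTROL replicate 2 stood apart from CONTROL replicates 1 and 3. On the log2(CPM + 0.5) scale it lay nearer to the HOXA13 mean than to the other CONTROL libraries in 63.6% of all tested genes, and in 19 of the 30 tested genes of these families (63.3%). Marker genes moved in the same way. The summed level of 10 epithelial markers, of which none was at 0, was 2137, 7573 and 5334 CPM in CONTROL replicates 1, 2 and 3, and 9483 to 11316 CPM in HOXA13. The summed level of 15 mesenchymal and feeder markers was 8697, 773 and 6055 CPM in CONTROL and 335 to 1332 CPM in HOXA13. Vim (4351 and 3576 CPM) and Tagln (2215 and 1772 CPM) made up much of this sum in CONTROL replicates 1 and 3. Of the 14 tested, 13 had negative fold changes, and Thy1 was higher in each HOXA13 library than in any CONTROL library. Wt1 was highest in CONTROL replicate 2. Pdgfra and Osr1 had log2 fold changes of -0.20 (SE 0.53) and -0.02 (SE 1.01). Lum, one of these markers, was at 0 in every library but CONTROL replicate 1. The 10 stratified squamous markers together reached 12.7 to 28.6 CPM in CONTROL and 51.9 to 113 CPM in HOXA13. Krt15 gave 20.1 to 92.9 CPM of the latter, and Trp63 (p63), the defining regulator of squamous cells, had at most 0.75 CPM. The 8 definitive endoderm markers summed to 41.4 to 76.8 CPM over all libraries, so these markers were present at low levels. Sox17 lay between 0.975 and 4.84 CPM and Foxa2 between 1.76 and 5.04 CPM. Gata4 (13.1 to 31.9 CPM) and Gata6 (5.69 to 35.8 CPM) had the highest means. Gata6 averaged 26.9 CPM in CONTROL and 12.4 CPM in HOXA13, with overlapping groups. Of the 7 tested, 4 had positive and 3 negative fold changes. Of the sorted surface proteins, Cxcr4 RNA was at 2.25 to 11.3 CPM and that of Cdh1 (E-cadherin) at 192 to 1893 CPM. Pluripotent markers summed to 1047 CPM in CONTROL replicate 2 and to 39.6 to 403 CPM in the other libraries. Visceral endoderm markers summed to 7.94 to 16.5 CPM with Afp and Ttr at 0, myeloid markers to 40.9 to 135 CPM, and trophoblast markers to 222 to 370 CPM. In these bulk samples, fewer cells of a type and less RNA per cell cannot be told apart.

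Among the 70 genes, 18 had no count in any library, 22 had counts but fell under the expression filter, and 30 were tested. The 22 genes under the filter reached at most 36 counts, or 2.18 CPM. Of these, 13 had counts in a single library only, 7 in CONTROL libraries only and 8 in HOXA13 libraries only. Mean levels were at least 100 CPM in 10 of the tested genes, 10 to 100 CPM in 8 and below 10 CPM in 12. No gene of these families passed edgeR's quasi-likelihood test at an adjusted p-value of 0.05, where 0.309% of the 13600 genes tested were called. The lowest adjusted p-value was 0.0899, for Anxa8. At an unadjusted p-value under 0.05 there were 8 of the 30 genes, 6 with higher and 2 with lower levels in HOXA13, against 14.1% of all tested genes. The 3 HOXA13 values lay above all 3 CONTROL values in 8 of the 30 genes, where 11.5% of all tested genes did so. They lay below in 2, where 8.52% of all tested genes did so. Sprr2a3 and S100a14 are among the 8 above and among the 6 higher at unadjusted p. Their CONTROL libraries alone would not have carried them past the filter, so counts that include them are descriptions. DESeq2, which the study used, called 5 of the 31 genes for which it gave an adjusted p-value, against 5.05% of 14298 genes. These were Anxa1, Anxa8 and S100a16, which were higher in HOXA13, and Lce1h and Tgm2, which were lower. With limma voom and sample quality weights, 10 of the 30 were called, against 15.4% of all genes. With edgeR and without CONTROL replicate 2, 10 of the 30 were called, against 14.2% of all genes, and 9 genes were in both lists. Sprr2a3 was 1 of these 9. The family medians of the log2 fold change (HOXA13 over CONTROL) were 0.52 for 11 annexins, 0.19 for 10 S100 genes, -0.55 for 3 Sprr genes, -1.60 for 3 Lce genes and 0.14 for 3 transglutaminases, beside -0.01 for all tested genes.

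**Figure D1:**
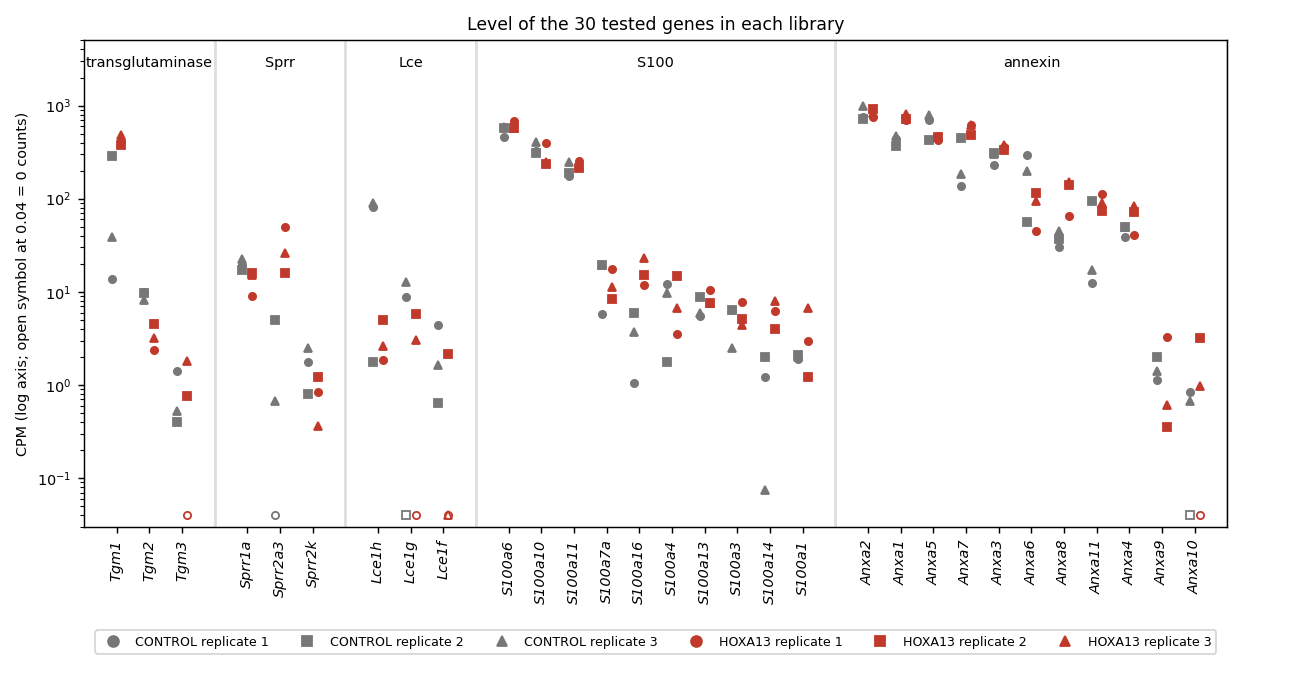
Level of each of the 30 tested genes in CPM on a log axis, grouped by family and ordered within a family by mean level, with 1 symbol per library (grey, CONTROL; red, HOXA13; circle, square and triangle, replicates 1, 2 and 3). Open symbols at the bottom mark libraries with 0 counts. The 10 genes averaging 100 CPM or more are 6 annexins, 3 S100 genes and Tgm1. Tgm1 spans 13.8 to 483 CPM, and the grey squares of CONTROL replicate 2 lie close to the red symbols for Tgm1, Lce1h and Anxa11.

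**Figure D2:**
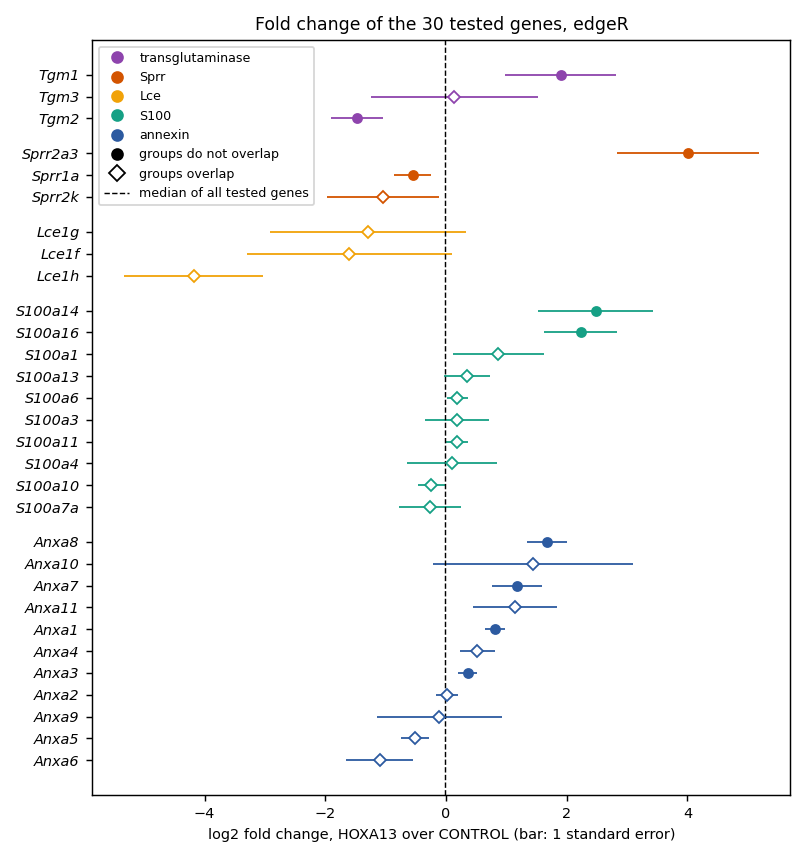
Log2 fold change (HOXA13 over CONTROL) of the 30 tested genes from edgeR, with bars of 1 standard error, coloured by family. Filled circles mark the 10 genes whose groups do not overlap, open diamonds the others, and the dashed line the median of all tested genes at -0.01. Estimates run from -4.18 for Lce1h to 4.01 for Sprr2a3.

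Of the 7 transglutaminase genes, Tgm1 was the most abundant in these cells. Its means were 38 CPM per kb of exon in CONTROL and 141 in HOXA13, against 2.03 and 0.731 for Tgm2. Tgm1 encodes the membrane-bound transglutaminase of keratinocytes (mm9, chromosome 14, 56318846 to 56332329, minus strand). Its level was 13.8, 290 and 38.5 CPM in replicates 1, 2 and 3 of CONTROL, and 415, 376 and 483 CPM in those of HOXA13. Values per library are given in this order throughout. All HOXA13 libraries lay above all CONTROL libraries, but the CONTROL libraries spanned a wide range and CONTROL replicate 2 came close to HOXA13. Its log2 fold change was 1.90 (SE 0.92) with an edgeR adjusted p-value of 0.415, and 0.465 with DESeq2. The difference was called by voom (adjusted p = 0.00153) and without CONTROL replicate 2 (log2 fold change 4.00, adjusted p = 0.00114), and over all alternatives the adjusted p-value ranged from 0.00114 to 0.743. Tgm1 followed the epithelial marker sum in that CONTROL replicate 2 was the highest and CONTROL replicate 1 the lowest of the CONTROL libraries for both, and the part of cell composition in its difference was not tested.

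Tgm2, the widely expressed tissue transglutaminase, showed the opposite direction at a far lower level (mm9, chromosome 2, 157942138 to 157972172, minus strand). It stood at 10, 9.83 and 8.17 CPM in the CONTROL libraries and 2.38, 4.51 and 3.21 CPM in the HOXA13 libraries. The groups did not overlap, and here CONTROL replicate 2 lay with the other CONTROL libraries. The mesenchymal and feeder sum of that library was 773 CPM, against 8697 and 6055 CPM in the others, and the part of cell composition in the difference of Tgm2 was not tested. The log2 fold change was -1.47 (SE 0.43), and adjusted p-values were 0.18 with edgeR and 0.0407 with DESeq2. Without CONTROL replicate 2 it was -1.44, with an adjusted p-value of 0.0801 in a range of 0.0384 to 0.575 over all alternatives. Tgm2 overlaps Rprd1b on the opposite strand, and the strand setting of the counting is not given in the sources used here. Tgm3, the transglutaminase of hair follicle and epidermis, stood at 1.42, 0.4 and 0.525 CPM in the CONTROL libraries and 0, 0.762 and 1.82 CPM in the HOXA13 libraries, with overlapping groups (log2 fold change 0.14, SE 1.39, of either sign with single libraries left out). Tgm4, the prostate enzyme, and Tgm5, an epidermal one, had no counts. Tgm6 had at most 6 counts and Tgm7 at most 3.

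Among the Sprr genes, all HOXA13 values of Sprr2a3 lay above the CONTROL values and all those of Sprr1a lay below, and neither passed edgeR. Promoter sequences of both are shown with those of Sprr2d, a family member without counts, because Sprr1a and Sprr2d hold the same letters. They are the 250 bases before the start site in RefSeq's annotation of GRCm38.p6, a later build than that of the counts, written 5′ to 3′ on the gene's strand. Capitals mark TGANTCA, the letters bound by AP-1, and TATAAA, the TATA box, each searched on both strands. None of the letter strings searched contains another. The coordinates are chr3:92485882-92486131 (minus strand) for Sprr1a, chr3:92338890-92339139 (plus strand) for Sprr2d and chr3:92285054-92285303 (plus strand) for Sprr2a3, which holds no match. Placed by the shift between builds seen for Sprr2b and Sprr2d, the Sprr2a3 window lies inside the counted gene and not before its start. The lack of a match in Sprr2a3 is therefore not comparable with Sprr1a and Sprr2d. For Tgm1, the upstream of 2 annotated starts is shown (chr14:55713493-55713742, minus strand), which also holds no match.
Sprr1a: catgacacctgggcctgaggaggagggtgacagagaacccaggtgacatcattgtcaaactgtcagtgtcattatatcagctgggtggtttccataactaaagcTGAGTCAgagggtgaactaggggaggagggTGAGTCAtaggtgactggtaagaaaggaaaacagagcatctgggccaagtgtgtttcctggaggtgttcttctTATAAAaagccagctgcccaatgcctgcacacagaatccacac
Sprr2d: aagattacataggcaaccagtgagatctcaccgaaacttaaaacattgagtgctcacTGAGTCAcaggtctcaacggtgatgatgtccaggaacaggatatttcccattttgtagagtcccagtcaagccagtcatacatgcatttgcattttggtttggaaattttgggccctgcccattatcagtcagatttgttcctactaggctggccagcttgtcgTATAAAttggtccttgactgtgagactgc
Sprr2a3: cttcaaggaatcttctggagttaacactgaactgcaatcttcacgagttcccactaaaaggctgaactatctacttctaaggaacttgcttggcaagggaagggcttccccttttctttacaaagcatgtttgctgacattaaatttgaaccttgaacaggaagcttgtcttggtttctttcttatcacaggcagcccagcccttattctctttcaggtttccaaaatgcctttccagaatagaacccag
Tgm1: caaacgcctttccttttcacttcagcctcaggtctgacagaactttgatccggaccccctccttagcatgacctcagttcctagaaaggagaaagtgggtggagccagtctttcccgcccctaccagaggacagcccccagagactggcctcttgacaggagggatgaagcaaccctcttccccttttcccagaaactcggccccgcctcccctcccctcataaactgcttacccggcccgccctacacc

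The promoter of Sprr1a held AP-1 letters 146 and 116 bases before the start and a TATA box 43 bases before it, and that of Sprr2d held AP-1 letters at 193 and a TATA box at 29 bases. Across the families, 69 promoters of 60 genes were found among the 32851 promoters of the table. TGANTCA occurred in 13 of the 69, and in 6.75% of all promoters. TATAAA occurred in 22, and in 12.4% of all promoters. Both occurred together in 9 of 14 Sprr promoters and in 1.21% of all promoters. In 7 Sprr2 promoters with both, the TATA box lay at 29 bases and the AP-1 letters at 182 to 198 bases before the start. Of the 9 Sprr genes with both, 4 had no count in any library and 2, Sprr1a and Sprr2k, were tested. AACNNGTT, the letters of Grainyhead-like (GRHL) factors, was found in 2 of the 69 promoters and in 3.64% of all. The letters CAATAAA and TCGTAAA, taken for the HOX13 proteins, were found in 1 and 0 of the 69 and in 4.2% and 0.478% of all promoters. A match is a description of letters in this window and not a measured binding site.

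Sprr2a3 (mm9, chromosome 3, 92054654 to 92093169, plus strand) had 0, 63 and 9 counts in CONTROL and 644, 270 and 434 counts in HOXA13, or 0, 5.04 and 0.675 CPM against 49.5, 15.8 and 26.3 CPM. The groups did not overlap, and the gene passed the expression filter through its HOXA13 libraries, since a single CONTROL library exceeded 10 counts. A gene that passes in this way had to differ between the groups, so its log2 fold change of 4.01 (SE 1.17) is a description. It is among the genes called by voom and without CONTROL replicate 2, and the latter fit rests on CONTROL libraries of 0 and 9 counts. The division of reads between its copies is uncertain, since 33.6% of the 75-base stretches of Sprr2a3 occur in Sprr2a1 or Sprr2a2, whose own stretches are shared to 95.7% and which had no counts.

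Sprr1a, an envelope precursor also induced in stressed tissue (mm9, chromosome 3, 92287877 to 92289816, minus strand), stood at 19.2, 17.1 and 22.7 CPM in the CONTROL libraries and 8.99, 15.9 and 15.3 CPM in the HOXA13 libraries. The groups did not overlap, but the gap between them, from 15.9 to 17.1 CPM, was narrow (log2 fold change -0.55, SE 0.31, adjusted p = 0.482). Sprr2k stood at 1.77, 0.8 and 2.47 CPM in the CONTROL libraries and 0.845, 1.23 and 0.364 CPM in the HOXA13 libraries, and the groups overlapped (log2 fold change -1.04, SE 0.93). Of the other 13 Sprr genes, 9 had no counts, among them Sprr3 and Sprr4. The remaining 4 were under the filter, the highest being Sprr1b with 36 counts in HOXA13 replicate 3.

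The Lce genes gave little signal apart from Lce1h (mm9, chromosome 3, 92567137 to 92568987, minus strand). Lce1h had 1157, 22 and 1193 counts in CONTROL and 24, 86 and 43 counts in HOXA13, or 82.1, 1.76 and 89.5 CPM against 1.84, 5.04 and 2.61 CPM. CONTROL replicates 1 and 3 were high, and CONTROL replicate 2 was as low as the HOXA13 libraries, so that the groups overlapped. The log2 fold change was -4.18 (SE 1.15) and adjusted p-values were 0.166 with edgeR and 0.0268 with DESeq2. Without CONTROL replicate 2 the adjusted p-value was 3.64e-04 and the log2 fold change -4.75, and the range over all alternatives was 3.64e-04 to 0.573. The libraries with high Lce1h were those with mesenchymal and feeder marker sums of 8697 and 6055 CPM, whereas the other 4 libraries had sums of at most 1332 CPM. The cells were grown on feeders before the sort on CXCR4 and E-cadherin, and the part of feeder cells in the difference was not tested.

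Lce1g and Lce1f were at lower levels. Lce1g stood at 8.79, 0 and 12.8 CPM in the CONTROL libraries and 0, 5.74 and 3.03 CPM in the HOXA13 libraries (log2 fold change -1.29, SE 1.62, and -0.60 to -2.25 with single libraries left out). Lce1f stood at 4.4, 0.64 and 1.65 CPM in the CONTROL libraries and 0, 2.17 and 0 CPM in the HOXA13 libraries (log2 fold change -1.60, SE 1.70). This fold change, which is also the Lce median given above, was -0.67 without CONTROL replicate 1 and -3.82 with voom, and without HOXA13 replicate 2 both HOXA13 libraries left are at 0. Both sets of groups overlapped. Of the other 18 Lce genes, 7 had no counts and 11 were under the filter with at most 23 counts, in Lce1m. Neighbouring Lce genes share sequence, with 4.35% to 4.94% of the 75-base stretches of Lce1f, Lce1g and Lce1h found in another Lce gene.

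**Figure D3:**
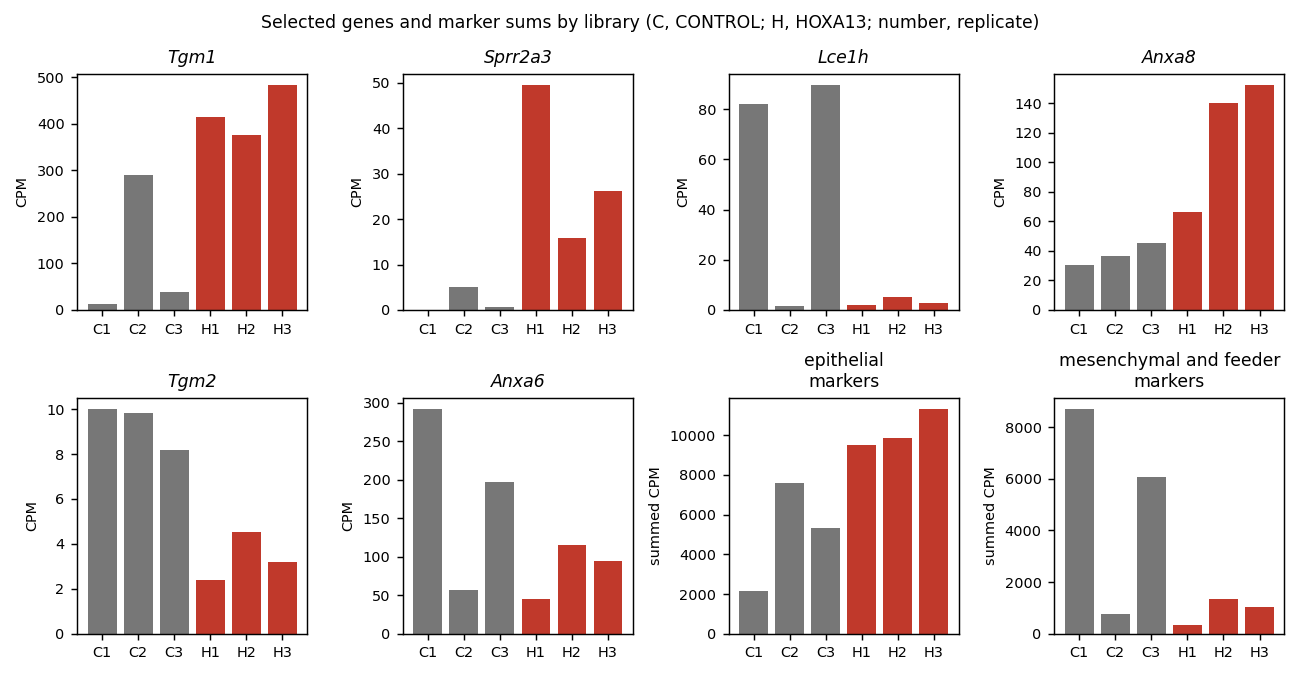
Levels by library for 6 genes in CPM and for 2 marker lists in summed CPM, with linear axes from 0 (grey, CONTROL; red, HOXA13). Tgm1 and the epithelial sum are high in CONTROL replicate 2 and in the HOXA13 libraries. Lce1h, Anxa6 and the mesenchymal and feeder sum are high in CONTROL replicates 1 and 3, and Tgm2 is higher in each CONTROL library than in each HOXA13 library.

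Of the S100 genes, S100a16 and S100a14 had all HOXA13 values above the CONTROL values, whereas the groups of the 3 abundant members overlapped. S100a16, a widely expressed family member (mm9, chromosome 3, 90341176 to 90347073, plus strand), stood at 1.06, 5.92 and 3.67 CPM in the CONTROL libraries and 11.7, 15.2 and 23.1 CPM in the HOXA13 libraries. The groups did not overlap, and the 6 libraries had the same order as in the epithelial marker sum, whose part in the difference was not tested. The log2 fold change was 2.23 (SE 0.61), and adjusted p-values were 0.16 with edgeR, 0.00962 with DESeq2 and 0.0164 with voom (over all alternatives, 0.00962 to 0.575). S100a14, found mainly in epithelia (mm9, chromosome 3, 90330778 to 90332755, plus strand), stood at 1.21, 2 and 0.075 CPM in the CONTROL libraries and 6.22, 4.04 and 8.06 CPM in the HOXA13 libraries. Its groups did not overlap, and the log2 fold change was 2.48 (SE 0.95) with adjusted p-values of 0.294 in edgeR and 0.0935 in DESeq2 (over all alternatives, 0.0607 to 0.702). The fold change was larger without CONTROL replicate 2 (3.22) and with voom (4.31), and neither passed. S100a14 had 17, 25 and 1 counts in CONTROL, so its CONTROL libraries alone would not have carried it past the expression filter. Its fold change and lack of overlap are thus a description.

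S100a6, the most abundant S100 gene per kb of exon, also called calcyclin, stood at 454, 577 and 582 CPM in the CONTROL libraries and 690, 575 and 579 CPM in the HOXA13 libraries (log2 fold change 0.19, SE 0.17). S100a10, the partner of annexin A2, stood at 328, 310 and 405 CPM in the CONTROL libraries and 399, 237 and 248 CPM in the HOXA13 libraries (-0.24, SE 0.23). S100a11, the partner of annexin A1, stood at 174, 187 and 250 CPM in the CONTROL libraries and 254, 212 and 226 CPM in the HOXA13 libraries (0.18, SE 0.18). The groups overlapped for each of these genes. For S100a11, 19% of 75-base stretches are shared with Gm7665, so part of its reads may be divided.

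S100a7a, the mouse relative of human psoriasin, stood at 5.74, 19.4 and 19.5 CPM in the CONTROL libraries and 17.6, 8.32 and 11.4 CPM in the HOXA13 libraries, with overlapping groups (log2 fold change -0.26, SE 0.51). The others are given as mean ± SD (n = 3 per group). S100a4, known from fibroblasts and motile cells, averaged 7.81 ± 5.36 CPM in the CONTROL libraries and 8.36 ± 5.78 CPM in the HOXA13 libraries. S100a13 was at 6.7 ± 1.76 and 8.55 ± 1.65 CPM, S100a3 at 5.06 ± 2.24 and 5.79 ± 1.81 CPM, and S100a1 at 2.01 ± 0.0836 and 3.67 ± 2.84 CPM. Their log2 fold changes lay between 0.10 and 0.87, and all had overlapping groups. Those of S100a3 and S100a4 turned sign with some single libraries left out, and that of S100a1, the highest of them at 0.87, was 0.05 without HOXA13 replicate 3. S100a8 and S100a9, whose products form calprotectin in neutrophils and inflamed squamous epithelium, were near 0. S100a8 had 0, 0 and 9 counts in CONTROL and 0, 23 and 7 counts in HOXA13, and S100a9 had at most 5 counts. S100a2 and S100a5 had at most 4 counts.

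The summed level of the annexins was 2506 to 3033 CPM in the CONTROL libraries and 3121 to 3530 CPM in the HOXA13 libraries, and 8 of their 11 tested genes had positive fold changes. Anxa8, found mainly in stratified and other barrier epithelia (mm9, chromosome 14, 34899167 to 34913757, plus strand), stood at 30.5, 36.5 and 45.3 CPM in the CONTROL libraries and 66, 140 and 152 CPM in the HOXA13 libraries. CONTROL replicate 2 lay between the other CONTROL libraries, and HOXA13 replicate 1 was the lowest of its group. The log2 fold change was 1.67 (SE 0.33, unadjusted p = 8.74e-04), and adjusted p-values were 0.0899 with edgeR and 1.54e-04 with DESeq2. Among the edgeR fits it passed only with no filter beyond 1 count (0.0325) and without CONTROL replicate 2 (0.018), and over all alternatives the adjusted p-value ranged from 1.54e-04 to 0.496. Anxa1, whose product restrains inflammation through formyl peptide receptors (mm9, chromosome 19, 20447918 to 20465434, minus strand), stood at 436, 364 and 469 CPM in the CONTROL libraries and 699, 710 and 818 CPM in the HOXA13 libraries. The CONTROL libraries lay close together here, and the gap to HOXA13 exceeded the spread within either group. Its log2 fold change was 0.81 (SE 0.16), with adjusted p-values of 0.0939 in edgeR, 0.00177 in DESeq2 and 0.00388 with voom (over all alternatives, 0.00177 to 0.513).

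Anxa7 and Anxa11, related annexins with long N-terminal regions, shared another pattern, in which CONTROL replicate 2 was high. Anxa7 stood at 136, 446 and 184 CPM in the CONTROL libraries and 623, 488 and 619 CPM in the HOXA13 libraries. The groups did not overlap (log2 fold change 1.18, SE 0.41, adjusted p = 0.253). Anxa11 stood at 12.3, 95.2 and 17.2 CPM in the CONTROL libraries and 112, 73.9 and 88.9 CPM in the HOXA13 libraries, so that CONTROL replicate 2 lay within the HOXA13 range (log2 fold change 1.14, SE 0.70, adjusted p = 0.529). Without CONTROL replicate 2 the log2 fold changes were 1.84 (adjusted p = 0.00121) for Anxa7 and 2.62 (adjusted p = 0.00102) for Anxa11. Voom called both. The ranges over all alternatives were 0.00121 to 0.652 for Anxa7 and 0.00102 to 0.844 for Anxa11.

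Anxa5, which binds exposed phosphatidylserine, and Anxa6 had lower means in HOXA13. Anxa5 stood at 703, 424 and 783 CPM in the CONTROL libraries and 425, 465 and 454 CPM in the HOXA13 libraries (log2 fold change -0.51, SE 0.23, adjusted p = 0.381). Anxa6, whose product has a duplicated core, stood at 292, 56.3 and 197 CPM in the CONTROL libraries and 45.3, 115 and 94.4 CPM in the HOXA13 libraries (-1.10, SE 0.56, adjusted p = 0.437). In both, CONTROL replicates 1 and 3 were the highest libraries, as they were for the mesenchymal and feeder sum, and for Anxa6 all 6 libraries had the same order as in that sum. The part of feeder cells left after the sort on CXCR4 and E-cadherin in these differences was not tested. Both were called without CONTROL replicate 2, at adjusted p-values of 0.00945 and 0.0192, and the ranges over all alternatives were 0.00945 to 0.733 and 0.0192 to 0.849.

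Anxa2, whose product forms a complex with S100A10, stood at 762, 724 and 987 CPM in the CONTROL libraries and 746, 916 and 837 CPM in the HOXA13 libraries. Its log2 fold change of 0.02 (SE 0.18) was close to 0, and its sign turned in 5 of the 8 alternatives that kept all libraries. Anxa3 stood at 232, 308 and 299 CPM in the CONTROL libraries and 361, 337 and 381 CPM in the HOXA13 libraries, without overlap (log2 fold change 0.36, SE 0.16, adjusted p = 0.377). Anxa4 averaged 45.8 ± 6.45 CPM (SD, n = 3) in the CONTROL libraries and 65.6 ± 22.7 CPM in the HOXA13 libraries (log2 fold change 0.52, SE 0.29). Anxa9 stood at 1.13, 2 and 1.42 CPM in the CONTROL libraries and 3.3, 0.351 and 0.606 CPM in the HOXA13 libraries. Anxa10, known from gastric epithelium, was at 0.509 ± 0.449 and 1.4 ± 1.65 CPM (SD, n = 3). Both overlapped between the groups, with log2 fold changes of -0.11 (SE 1.04) for Anxa9 and 1.44 (SE 1.66) for Anxa10 that turned sign with some single libraries left out. Anxa13 had 5 counts in a single library.

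**Figure D4:**
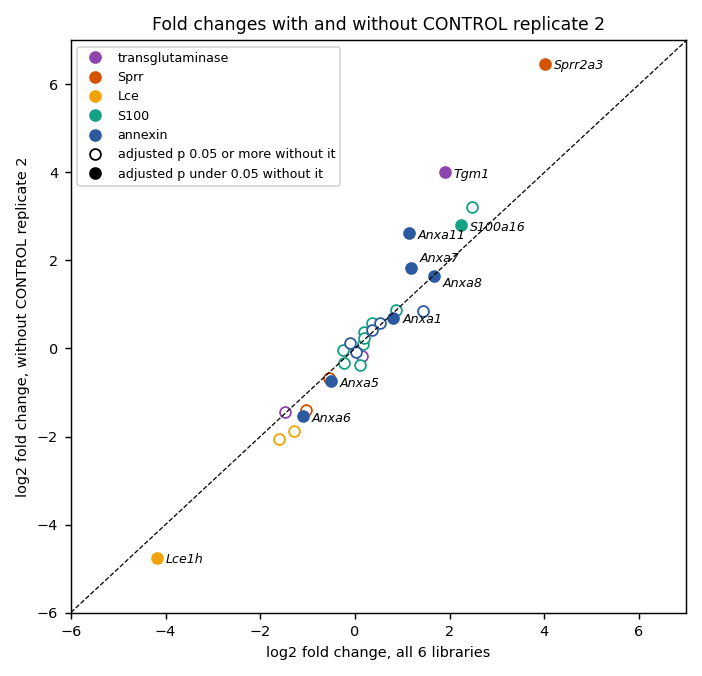
Log2 fold change of the 30 tested genes with all 6 libraries (x axis) and without CONTROL replicate 2 (y axis), coloured by family, with the dashed line where both are equal. Filled symbols mark the 10 genes with an adjusted p-value under 0.05 without that library. Tgm1 moves from 1.90 to 4.00, Sprr2a3 from 4.01 to 6.47, where the CONTROL libraries left have 0 and 9 counts, and Anxa11 from 1.14 to 2.62, while Anxa8 and Anxa1 stay near the line.

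When levels were compared between genes, CPM were divided by exon length. Per kilobase of exon, S100a6 had the highest mean level of the set, at 748 CPM per kb in CONTROL and 855 CPM per kb in HOXA13. In the order of the CONTROL means, S100a11 followed with 399 and 451, and Anxa5 with 379 and 267. The next were S100a10 (287 and 243), Anxa2 (221 and 223), Anxa3 (175 and 225) and Anxa1 (162 and 285), all in CPM per kb. By the HOXA13 means, Anxa1 came after S100a11 and before Anxa5 and S100a10. Tgm1 went from a mean of 38 CPM per kb in CONTROL to 141 in HOXA13, and Lce1h from 81.8 to 4.48. Within the summed annexin level per kb, Anxa5 made up 33.3% ± 6.99 (SD, n = 3) in CONTROL and 20.2% ± 0.912 in HOXA13, and its share was higher in every CONTROL library than in any HOXA13 library. Anxa1 made up 14.4% ± 0.584 in CONTROL and 21.5% ± 0.824 in HOXA13, also without overlap. The share of Anxa8 was 1.77% ± 0.265 and 4.75% ± 1.66. The share of Anxa7 was 7.85% ± 5.97 and 14.4% ± 2.16, and CONTROL replicate 2, at 14.7%, lay within the HOXA13 range. Within the S100 genes, the share of S100a6 was 50.2% ± 3.43 in CONTROL and 52.7% ± 1.16 in HOXA13. These shares are descriptions and were not tested.

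**Figure D5:**
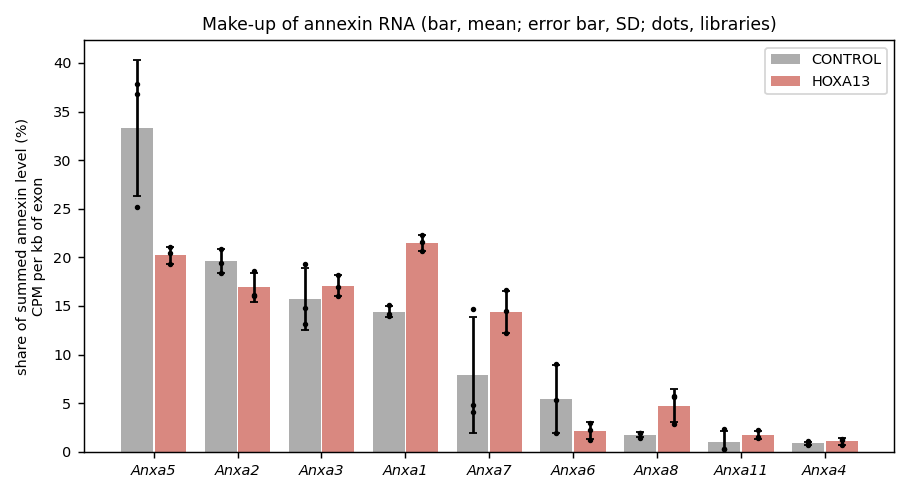
Share of each annexin in the summed annexin level (CPM per kb of exon) in percent, for annexins above 1% in either group, with bars for group means, error bars of 1 SD (n = 3) and dots for single libraries. Anxa5 takes 33.3% in CONTROL and 20.2% in HOXA13, and Anxa1 takes 14.4% and 21.5%.

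By position, 66 of the 70 genes were found in GENCODE M1, an annotation of mm9. The S100, Sprr and Lce genes of the epidermal differentiation complex numbered 47, between 90314956 and 93368565 on chromosome 3. Of these, 16 were tested, 4 had groups that did not overlap (S100a14, S100a16 and Sprr2a3 above, Sprr1a below), where 11.5% of all tested genes lay above and 8.52% below. Sprr2a3 passed the filter through its HOXA13 libraries and so had to differ, and S100a14 would not have passed on its CONTROL libraries alone. The median log2 fold change of the 16 was 0.14, beside -0.00 for chromosome 3 as a whole. Anxa7, Anxa8, Anxa11 and Tgm1 lie on chromosome 14, far apart, and all 4 had positive fold changes. The median of chromosome 14 was itself 0.33. After each chromosome's own shift was taken out per library, their log2 fold changes were 0.93, 1.31, 1.00 and 1.81, and the adjusted p-value of Anxa8 was 0.192.

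Other genes of the same biology were read from the same fit. None of the 25 tested genes of 4 lists passed edgeR at an adjusted p-value of 0.05, and 10 had an unadjusted p-value under 0.05 (14.1% of all tested genes). DESeq2 called 7 (5.05% of all genes) and voom called 12 (15.4%). Of 19 listed cornified envelope genes outside the set, 6 had no counts (Flg2, Hrnr, Rptn, Crnn, Lelp1 and Kprp) and 8 were tested. Ppl and Evpl, which encode the envelope scaffold proteins periplakin and envoplakin, were higher in DESeq2. Ppl stood at 16.7, 94.4 and 47.6 CPM in the CONTROL libraries and 167, 187 and 268 CPM in the HOXA13 libraries (log2 fold change 1.97, SE 0.54, edgeR adjusted p = 0.161, DESeq2 adjusted p = 0.00241). Without CONTROL replicate 2 it was 2.67 (edgeR adjusted p = 0.00538). Evpl stood at 7.45, 19.8 and 13.1 CPM in the CONTROL libraries and 32.7, 35.6 and 51.1 CPM in the HOXA13 libraries. In both, the 6 libraries had the same order as in the epithelial marker sum, and the part of cell composition was not tested. Tchh stood at 27, 47.4 and 27.7 CPM in the CONTROL libraries and 59.5, 64.1 and 65.4 CPM in the HOXA13 libraries. The libraries had the same order as for Ppl (log2 fold change 0.89, SE 0.26). Adjusted p-values were 0.178 with edgeR and 0.061 with DESeq2. Without CONTROL replicate 2 it was 1.19 (edgeR adjusted p = 0.00444). Ppl, Evpl and Tchh were the 3 without overlap, where 11.5% of all tested genes lay above. The groups of the other tested envelope genes overlapped, and none passed edgeR or DESeq2 with all libraries. Lor, the main envelope protein loricrin, averaged 30.1 ± 21.7 CPM in the CONTROL libraries and 47.9 ± 11.2 CPM in the HOXA13 libraries (SD, n = 3). Its log2 fold change of 0.67 became 1.37 without CONTROL replicate 2, where edgeR called it (adjusted p = 0.0397). Ivl, the precursor involucrin, averaged 1.14 ± 0.624 and 2.29 ± 1.92 CPM, and Cdsn 0.615 ± 0.603 and 1.79 ± 1.55 CPM (log2 fold change 1.53, SE 1.65). Crct1, a small cysteine-rich gene of the complex, and Scel, the envelope precursor sciellin, went the other way, with 13.2 ± 4.61 and 7.97 ± 3.21 CPM for Crct1 (log2 fold change -0.73) and 1.93 ± 2.02 and 0.511 ± 0.641 CPM for Scel (-1.88, and -0.67 without CONTROL replicate 2, its highest library). Of the 8 tested genes, 6 had positive and 2 negative fold changes. Flg and Csta were not analysed here.

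All 7 tested regulators of squamous differentiation had positive fold changes, where 6639 of the 13600 tested genes did so. In 5 of them the HOXA13 values lay above all CONTROL values (11.5% of all tested genes). Trp63, also on this list, was under the filter, with means of 0.274 CPM in CONTROL and 0.0586 CPM in HOXA13. Grhl2, one of the 5, is also one of the 10 epithelial markers, all of which had positive fold changes. Grhl1, a Grainyhead-like transcription factor, stood at 3.62, 13 and 5.02 CPM in the CONTROL libraries and 42.7, 54.7 and 71.7 CPM in the HOXA13 libraries, in the same order of the 6 libraries as the epithelial marker sum, and the part of cell composition was not tested. Its log2 fold change was 2.97 (SE 0.49), with adjusted p-values of 0.0619 in edgeR and 1.10e-07 in DESeq2. Without CONTROL replicate 2 it was 3.69 (edgeR adjusted p = 6.62e-04). DESeq2 also called Grhl3, Ovol1 and Prdm1. The groups of Klf4 and Zfp750 overlapped, with means of 159 ± 83.1 (CONTROL) and 249 ± 27.2 (HOXA13) CPM for Klf4 and 10.1 ± 2.55 and 13.1 ± 4.17 CPM for Zfp750 (SD, n = 3). Without CONTROL replicate 2 edgeR called Klf4 (log2 fold change 1.13 against 0.64 with all libraries, adjusted p = 0.00733). Of 12 partners of annexins, S100 proteins and transglutaminases, 10 were tested and DESeq2 called 1, the protease gene Capn1, with means of 61.3 ± 18.8 (CONTROL) and 116 ± 24.6 (HOXA13) CPM (SD, n = 3). Fpr1 had no counts and Fpr2, like Fpr1 a receptor of annexin A1, had at most 0.75 CPM. Of 5 family members with differently formed symbols, S100b, S100g and F13a1 had no counts, and none was tested.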

How the data were processed

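Poly-A RNA of 6 libraries was sequenced with a stranded NEBNext kit. The labels name an Illumina NextSeq instrument, and the study's methods a NextSeq protocol on a HiSeq. The deposited tables, 1 per sample, hold raw read counts by gene symbol that the authors made with bcl2fastq 2.17, TopHat2 2.0.14, the mouse build mm9 and HTSeq 0.6.1p1, according to the submitters' processing notes. The study's methods name another TopHat version for these libraries. The annotation, strand option and handling of multi-mapped reads are not given in the sources used here, so overlapping and closely related genes are uncertain. Groups came from the sample titles. The members and lists were chosen with earlier results of these data known.

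The main test was that of edgeR 4.0.16 in R 4.3.3 (filterByExpr with a minimum count of 10 and total of 15, TMM, glmQLFit and glmQLFTest on the group alone, Benjamini-Hochberg adjustment over 13600 genes, threshold 0.05). The biological coefficient of variation was 41.5%. DESeq2 1.42.0, limma 3.58.1 voom with quality weights, the edgeR 4 method, RLE scaling, 2 other filters, a chromosome offset, a replicate block and leaving out each library were alternatives. The code was tested on simulated data. Every member past the filter was named; values per library are given for members called by any tool, members without overlap, the most abundant 4 of a family and known markers. Chromosome offsets came from genes averaging 16 CPM or more. Sequence sharing was counted over 75-base stretches of the protein-coding transcripts of GENCODE M1, so sharing with sequence outside them was not counted. The 8 marker lists and 4 pathway lists are given with the results, and 1 gene of the list of squamous regulators is not reported here.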

Additional observations from a re-analysis of the deposited data

How the results depend on the processing

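The log2 fold changes of the 30 tested genes were compared under 14 alternatives, which gave 414 values. Of these, 366 kept their direction and their side of the threshold, 26 kept direction and came to pass it and 22 turned sign. None of the 30 was called by edgeR, so no call could be lost. In 24 genes the direction held under every alternative run. The number of genes called higher was 0 with edgeR, 3 with DESeq2, 7 with voom and 1 with no filter beyond 1 count (Anxa8), and 0 to 7 when single libraries were left out. The number called lower was 0 with edgeR, 2 with DESeq2, 3 with voom and 0 to 3 with single libraries left out. All calls of the leave-out fits came without CONTROL replicate 2, where 7 were higher and 3 lower. The other leave-out fits called 0 to 7 genes of the whole data set, so the lack of calls there is not particular to these families. The other genes of the pathway lists numbered 0 called with edgeR, 7 with DESeq2, 1 with the edgeR 4 method, 12 with voom, 1 with no filter, and 0 to 12 with single libraries left out, again with 12 without CONTROL replicate 2. Why the tools differ was not tested, and the cause was not tested for the change without CONTROL replicate 2. The number of genes whose groups do not overlap was 10, and 10 to 17 with single libraries left out, which leaves fewer values to overlap. The median of the transglutaminases, which rests on 3 genes, was 0.14, 1.88 with no filter, and -1.01 to 0.88 with single libraries left out.

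The sign turned in 6 genes with small or uncertain estimates. Anxa2 went to -0.00 with DESeq2 and with RLE scaling, -0.06 with voom, and -0.01 with either other filter, and ran from -0.09 to 0.15 with single libraries left out. S100a4 went to -0.08 with voom and ran from -0.62 to 0.53. Over the same leave-out fits Anxa9 ran from -1.66 to 0.33, Anxa10 from -0.08 to 2.01, S100a3 from -0.16 to 0.37 and Tgm3 from -1.01 to 0.88.

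Libraries with the same replicate number did not deviate together (correlations of deviations -0.21, -0.27 and 0.10), and 0 of 3 CONTROL replicates correlated best with its own number. With the number as a replicate block, edgeR called 0 genes in the whole data set and so 0 of the families and 0 of the pathway lists, the transglutaminase median was -0.17 and that of Tgm3 -0.17, and the direction of the other tested genes held. Depth limits the 22 genes under the filter and the 12 tested genes below 10 CPM, where a count of 3 is 0.176 to 0.24 CPM and differences of a few counts are not detectable.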
